A study of Mus musculus with 12 samples.

Results

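The genes described here encode complement and coagulation factors, the plasma proteins of innate defence and of clotting that are mostly secreted by the liver. The rule named 34 genes and took, for each, the probe set that carries that gene symbol alone and has the highest mean over 12 arrays. It found 32 of the 34 among 19938 genes so measured. The probe set of Klkb1 (plasma kallikrein) carries several symbols and was not used, and 1 further gene was not analysed here. No filter on dim values was applied, so all 32 measured members stand in every count.

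RNA from the livers of male C57BL/6N mice was measured on Affymetrix Mouse Gene 1.0 ST arrays, with 3 arrays in each of 4 groups. The mice were wild type (WT) or carried Lmna G609G on both alleles (KI), a germline knock-in used as a model of Hutchinson-Gilford progeria. Each genotype received a control diet (CD) or a methionine-restricted diet (MR) from 7 weeks of age, and every mouse was killed at 110 days after 6 hours of fasting. The groups are called WT_CD, WT_MR, KI_CD and KI_MR, and all results are for males of this age and strain. Whether the arrays of a group are separate animals is not stated in the labels, so a p-value here refers to the spread among samples, which may be technical.

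Complement is a cascade of plasma proteases and binding proteins. Lectins or antibody on a surface start it, the convertases built from C2 or factor B cleave C3 and C5, and C5b then gathers C6, C7, C8 and many copies of C9 into a pore, the membrane attack complex. Coagulation is a second protease cascade, in which the contact system and tissue factor lead to thrombin, and thrombin turns fibrinogen into fibrin. Anticoagulant proteins hold it in check and plasmin dissolves the clot. Hepatocytes make most of these proteins.

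Values are deposited intensities in arbitrary units, given per array in replicate order, and compared only within a gene because probe sets differ in brightness. Changes are differences of mean log2 intensity ± SE from a limma fit over all 19938 genes. Adjusted p-values come from that fit with Benjamini-Hochberg adjustment, and a gene was called past 0.05. The array medians ranged from 82 to 90 units. Correlations of each array with the others of its group averaged 0.986 to 0.994 over all genes, and KI_CD replicate 1 had the lowest. Of 7 measured hepatocyte markers, 0 were called by limma for the average diet effect and 0 had an unadjusted p under 0.05, and their changes there ran from -0.19 to 0.05. Albumin (Alb) lay between 14385 and 16177 units on the 12 arrays, brighter than 99.99% of genes. The highest deposited value was 20042, and whether changes are compressed at such levels was not tested. Platelet markers summed to 396 to 657 units and neutrophil and monocyte markers to 351 to 420 units over 4 and 7 genes. In bulk liver, fewer cells of a type and less RNA per cell cannot be told apart.

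The question taken first here is what methionine restriction did in liver, averaged over both genotypes. Of the 7 contrasts, this average diet effect held the most member calls. Of the 5 measured members from the pore-forming end of complement, C6, C8a, C8b and C9 fell and C8g did not pass. The 4 were lower on the restricted diet, by 2.27-fold to 6.5-fold. The contact factor F11 and the complement inhibitor C4bp were lower as well, each by a smaller factor. By limma 6 of 32 members fell and 0 rose, where 0.602% of all genes fell and 0.607% rose. In the 12 fits that each left out 1 array, these 6 were called every time.

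The sequences before the start sites of these 6 genes are shown because the 6 carry the main diet result, and so that liver factor motifs can be read beside their values. Each is the 250 bases that end just before the annotated start, 5′ to 3′ on the gene's strand, from RefSeq GRCm38.p6. C6 is at chr15:4726960-4727209 (plus strand), C8a at chr4:104876399-104876648 (minus), C8b at chr4:104766067-104766316 (plus), C9 at chr15:6445096-6445345 (plus), C4bp at chr1:130661619-130661868 (minus) and F11 at chr8:45262032-45262281 (minus). Capitals mark matches on either strand to GTTAAT (a core of the HNF1 site), TGTTTAC or TGTTTGC (FOXA), TTGCNNAA (C/EBP) and TTCNNNGAA (STAT).
C6: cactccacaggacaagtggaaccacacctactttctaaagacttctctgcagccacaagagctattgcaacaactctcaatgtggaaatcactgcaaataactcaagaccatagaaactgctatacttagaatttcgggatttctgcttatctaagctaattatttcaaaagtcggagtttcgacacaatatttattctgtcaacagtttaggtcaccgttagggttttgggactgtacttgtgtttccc
C8a: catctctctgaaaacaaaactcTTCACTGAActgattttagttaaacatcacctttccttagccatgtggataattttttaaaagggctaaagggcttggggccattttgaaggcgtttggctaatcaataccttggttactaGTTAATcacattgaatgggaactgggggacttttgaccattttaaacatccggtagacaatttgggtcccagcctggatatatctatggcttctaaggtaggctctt
C8b: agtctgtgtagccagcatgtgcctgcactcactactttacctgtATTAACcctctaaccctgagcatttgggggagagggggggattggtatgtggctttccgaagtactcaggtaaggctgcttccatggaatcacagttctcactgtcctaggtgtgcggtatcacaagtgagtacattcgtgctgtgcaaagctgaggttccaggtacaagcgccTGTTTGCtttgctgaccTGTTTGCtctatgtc
C9: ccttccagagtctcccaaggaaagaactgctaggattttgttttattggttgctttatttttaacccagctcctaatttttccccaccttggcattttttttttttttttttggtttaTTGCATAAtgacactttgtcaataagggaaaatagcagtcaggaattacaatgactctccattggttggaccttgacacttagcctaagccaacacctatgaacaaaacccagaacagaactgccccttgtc
C4bp: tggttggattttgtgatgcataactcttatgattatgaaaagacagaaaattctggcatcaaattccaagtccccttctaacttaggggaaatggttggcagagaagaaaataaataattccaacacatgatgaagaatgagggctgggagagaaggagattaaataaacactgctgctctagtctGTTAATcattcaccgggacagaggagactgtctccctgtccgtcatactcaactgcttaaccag
F11: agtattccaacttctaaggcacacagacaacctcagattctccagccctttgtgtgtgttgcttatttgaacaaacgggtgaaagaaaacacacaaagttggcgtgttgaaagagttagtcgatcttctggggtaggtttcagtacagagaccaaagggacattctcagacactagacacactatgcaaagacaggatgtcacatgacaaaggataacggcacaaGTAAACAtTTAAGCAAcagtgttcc

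The HNF1 letters stood 64 to 59 bases before the C4bp start, 107 to 102 before that of C8a and, on the minus strand, 206 to 201 before that of C8b. C8b further held TGTTTGC at 32 to 26 and at 15 to 9 bases before its start. In C9 the C/EBP letters lay at 132 to 125, and in C8a the STAT letters at 228 to 220. In F11 the reverse complement of TGTTTAC lay at 25 to 19 and that of TTGCNNAA at 17 to 10, without overlap. None of the searched letters, nor TATAAA, stood in the C6 window, which says only that those letters are not in these 250 bases. Of 27025 promoters of this length, GTTAAT was found in 6.52%, TGTTTAC in 3.09%, TGTTTGC in 4.3%, TTGCNNAA in 9.55%, TTCNNNGAA in 7.18% and TATAAA in 3504 of them. Of the 25 members with an entry, 6 held GTTAAT, 1 TGTTTAC, 1 TGTTTGC, 5 TTGCNNAA, 6 TTCNNNGAA and 0 TATAAA. These matches are letters in a window and were not tested as binding sites.

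C6 binds C5b and begins the membrane attack complex. Its intensity was 2624, 2084 and 3674 units in WT_CD and 421, 293 and 658 in WT_MR. In KI_CD it was 943, 1205 and 1217 units, and in KI_MR 317, 399 and 359. In each genotype every restricted array lay below every control array, and KI_CD lay between the WT_CD and WT_MR arrays. The average diet effect was a fall of 4.43-fold (-2.15 ± 0.19, 95% interval -2.56 to -1.73, limma adjusted p = 0.000502). C6 also fell within each genotype, 6.28-fold in WT (-2.65 ± 0.27, limma adjusted p = 0.00192) and 3.12-fold in KI (-1.64 ± 0.27, limma adjusted p = 0.0462).

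C9 polymerises into the ring of the pore. Its intensity was 3548, 3466 and 4636 units in WT_CD and 396, 293 and 2270 in WT_MR. In KI_CD it was 2460, 2935 and 2748 units, against 219, 540 and 481 in KI_MR. The groups did not overlap in either genotype, but WT_MR replicate 3 lay far closer to the control arrays than the other restricted WT arrays did. The average fall was 6.5-fold (-2.70 ± 0.43, 95% interval -3.65 to -1.75, limma adjusted p = 0.0135). Within a genotype the differences of -2.59 ± 0.61 in WT and -2.82 ± 0.61 in KI did not pass (limma adjusted p = 0.139 and 0.138). Without WT_MR replicate 3 they were -3.50 and -2.82 and both passed (limma adjusted p = 0.00319 and 0.00834).

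C8 joins the growing complex as 3 chains from 3 genes. C8a, the chain that enters the membrane first, measured 3551, 2908 and 5655 units in WT_CD, 1202, 1137 and 2625 in WT_MR, 2899, 3863 and 2450 in KI_CD and 641, 1046 and 822 in KI_MR. C8b, the chain that binds the C5b, C6 and C7 complex, measured 5955, 5610 and 8229 units in WT_CD, 2373, 2529 and 4364 in WT_MR, 3560, 6452 and 5322 in KI_CD and 1668, 2596 and 2188 in KI_MR. For both genes the diet groups did not overlap in either genotype, and WT_MR replicate 3 was again the highest restricted array.

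The average diet effect was -1.61 ± 0.24 for C8a (3.05-fold lower, limma adjusted p = 0.00941) and -1.18 ± 0.20 for C8b (2.27-fold lower, limma adjusted p = 0.0162). C8b came closest to the threshold of the 6, at an adjusted p of 0.0496 in limma with an array left out. The third chain, C8g, a lipocalin, measured 7775, 5886 and 6166 units in WT_CD, 6329, 5898 and 5916 in WT_MR, 5813, 5285 and 5735 in KI_CD and 5418, 4720 and 3646 in KI_MR. Its WT groups overlapped, and its average difference of -0.21 ± 0.10 (95% interval -0.43 to 0.00) did not pass (limma adjusted p = 0.469).

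F11, the zymogen that activates factor IX in the intrinsic pathway, measured 986, 914 and 804 units in WT_CD and 291, 254 and 348 in WT_MR. In KI_CD it measured 692, 527 and 656 units and in KI_MR 336, 439 and 356. All restricted arrays lay below all control arrays. The average fall was 2.25-fold (-1.17 ± 0.10, limma adjusted p = 0.000502). It was 3.04-fold in WT (-1.61 ± 0.15, limma adjusted p = 0.00135), whereas the difference of -0.73 ± 0.15 in KI did not pass (limma adjusted p = 0.103).

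C4bp, the inhibitor that binds C4b and speeds the decay of the classical convertase, measured 5063, 5195 and 5665 units in WT_CD and 3924, 3612 and 4565 in WT_MR. In KI_CD it measured 4936, 5038 and 4681 units and in KI_MR 3105, 3403 and 3141. No restricted array reached the level of a control array. The average fall was 1.42-fold (-0.50 ± 0.06, limma adjusted p = 0.00439). In KI it fell 1.52-fold (-0.60 ± 0.09, limma adjusted p = 0.0283), and in WT the difference was -0.40 ± 0.09 (limma adjusted p = 0.113).

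**Figure D1:**
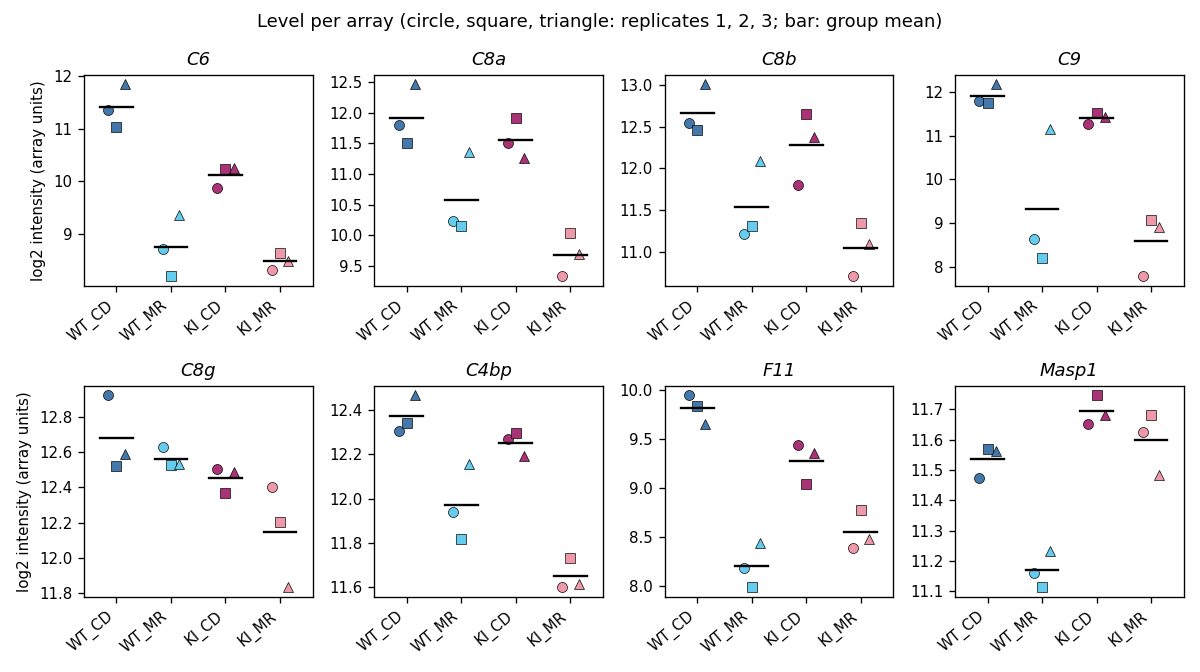
Log2 intensity per array (vertical axis, each panel with its own range) of the members called for diet or genotype, with C8g for comparison, in 4 groups; circle, square and triangle are replicates 1, 2 and 3 and bars are group means. WT_MR replicate 3 lies far above the other WT_MR arrays for C9, and for C8g the WT groups overlap.

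Within the knock-in, restriction lowered 2 of 32 members by limma, C6 and C4bp, where 0.115% of all genes were called lower. In WT it also lowered 2, C6 and F11, where 0.115% of genes were called lower as well. In KI 30 of 32 members were below 0, against 56.4% of all genes, and 15 were lower without overlap of the arrays, against 6.99%. In WT 30 were below 0, against 52.1%, and 13 were lower without overlap, against 5.17%. The KI calls were fragile. With 1 array left out, the adjusted p of C6 in KI ranged from 0.0217 to 0.207 and that of C4bp from 0.0130 to 0.148. Both calls were lost without WT_CD replicate 1 or 2, WT_MR replicate 1, KI_CD replicate 2 or 3, or KI_MR replicate 1 or 3, and that of C6 also without KI_MR replicate 2. Median centring, and a fit of the 6 KI arrays alone, ended both KI calls. The WT calls of C6 and F11 held in all 12 fits with an array left out.

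**Figure D2:**
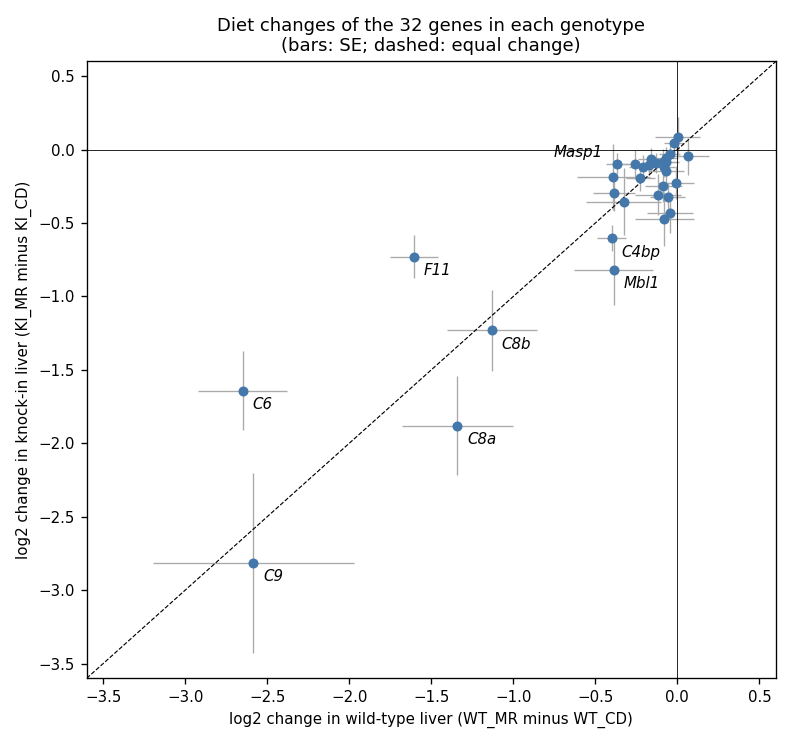
Diet difference of each of the 32 members in KI (vertical axis, log2) against the same in WT (horizontal axis, log2), with bars of ± SE from the fit to all 12 arrays and a dashed line of equal change. C9, C6, C8a and C8b lie far into the lower left, C6 and F11 lie above the diagonal, and most other members lie near the origin.

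Whether the diet difference itself depended on genotype was tested with the interaction, which is positive where the fall in KI was smaller. By limma 0 of 32 members and 0.0% of all genes passed. At an unadjusted p under 0.05 there were 3 members, F11, C6 and Masp1, where 4.13% of genes had such a p. F11 gave 0.88 ± 0.21 (95% interval 0.42 to 1.33, limma adjusted p = 0.966), C6 1.01 ± 0.38 (0.17 to 1.84, limma adjusted p = 1) and Masp1 0.27 ± 0.10. Pros1, the gene of protein S, gave -0.39 ± 0.20. The intervals of the other called members spanned 0: they ran from -2.13 to 1.68 for C9, -1.59 to 0.51 for C8a, -0.96 to 0.76 for C8b and -0.48 to 0.07 for C4bp.

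The other members mostly showed small differences below 0. In the average diet effect 29 of 32 members were below 0, against 55.6% of all genes, and 16 were below 0 at an unadjusted p under 0.05, against 6.09% of all genes. These counts are for all 32 members, and the 16 include the 6 called ones. The median of all 32 was -0.19, against -0.01 over all genes. Without the 5 terminal genes the median of the 27 others, F11 and C4bp still among them, was -0.17. Of these 27, 12 were below 0 at an unadjusted p under 0.05. Quantile normalization left 27 of 32 below 0 and median centring 29, so the sign of the smallest differences depends on the scaling. The number at an unadjusted p under 0.05, in either direction, was 13 after quantile normalization and 10 after median centring. Restricted arrays lay below control arrays without overlap in both genotypes for 8 members, C2, C6, C8a, C8b, C9, C4bp, F11 and F5, where 1.14% of genes did so. The members above 0 in either genotype were Mbl2, C5ar1 and Serpinc1.

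Among the lectin pathway genes, 3 of 4 were below 0 for diet and 0 passed. The lectin gene Mbl1 had the largest difference, -0.60 ± 0.17 (limma adjusted p = 0.149), with 1801, 1089 and 2256 units in WT_CD, 1083, 1044 and 1742 in WT_MR, 1346, 1545 and 1465 in KI_CD and 798, 871 and 801 in KI_MR. Its WT groups overlapped and its KI groups did not. The other mannose-binding lectin gene, Mbl2, gave 0.04 ± 0.10. Masp2, the protease that cleaves C4 and C2, gave -0.21 ± 0.06 (limma adjusted p = 0.155).

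Of the convertase components, C2 gave -0.34 ± 0.09 (limma adjusted p = 0.122) and factor B (Cfb) -0.12 ± 0.08. C2 measured 976, 877 and 1262 units in WT_CD, 776, 743 and 836 in WT_MR, 853, 1066 and 990 in KI_CD and 732, 838 and 799 in KI_MR. Its diet groups did not overlap in either genotype. Factor I (Cfi), which inactivates C3b and C4b, gave -0.19 ± 0.07, and the C5a receptor gene C5ar1 0.01 ± 0.09. C5ar1 was dim, at 85 to 133 units on all arrays.

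In the coagulation arm F11 was the only member called for diet among 18. Prothrombin (F2), the precursor of thrombin, gave -0.06 ± 0.05, with 6613, 7049 and 7306 units in WT_CD and 6759, 6075 and 7179 in WT_MR. F7, F9 and F10, the other vitamin K dependent procoagulant factors, gave -0.34 ± 0.16, -0.29 ± 0.16 and -0.11 ± 0.08. For these 3 genes the diet groups overlapped in both genotypes. In the contact system, kininogen (Kng1) gave -0.04 ± 0.04 and factor XII (F12) -0.11 ± 0.05. The cofactor F5 gave -0.14 ± 0.05 and F13b, the carrier subunit of factor XIII, -0.18 ± 0.07. None of these passed, and the adjusted p of F5 by limma was 0.262.

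The fibrinogen chains lie next to each other in the genome as Fgg, Fga and Fgb. Their diet differences were -0.09 ± 0.06, -0.28 ± 0.13 and -0.08 ± 0.06, and 0 of 3 passed. Fga measured 2930, 3489 and 2897 units in KI_CD and 2080, 2391 and 2233 in KI_MR, without overlap, while its WT groups overlapped. The difference in KI was -0.47 on this probe set and -1.01 on a second, dimmer one. In WT the 2 probe sets differed in sign, at -0.08 and 0.10. Antithrombin (Serpinc1) gave 0.01 ± 0.04, with 7626 to 8744 units on the 12 arrays. Heparin cofactor II (Serpind1), protein C (Proc) and Pros1 gave -0.10 ± 0.05, -0.17 ± 0.06 and -0.24 ± 0.10. Plasminogen (Plg) gave -0.11 ± 0.05 and its product's inhibitor, antiplasmin (Serpinf2), -0.17 ± 0.08.

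**Figure D3:**
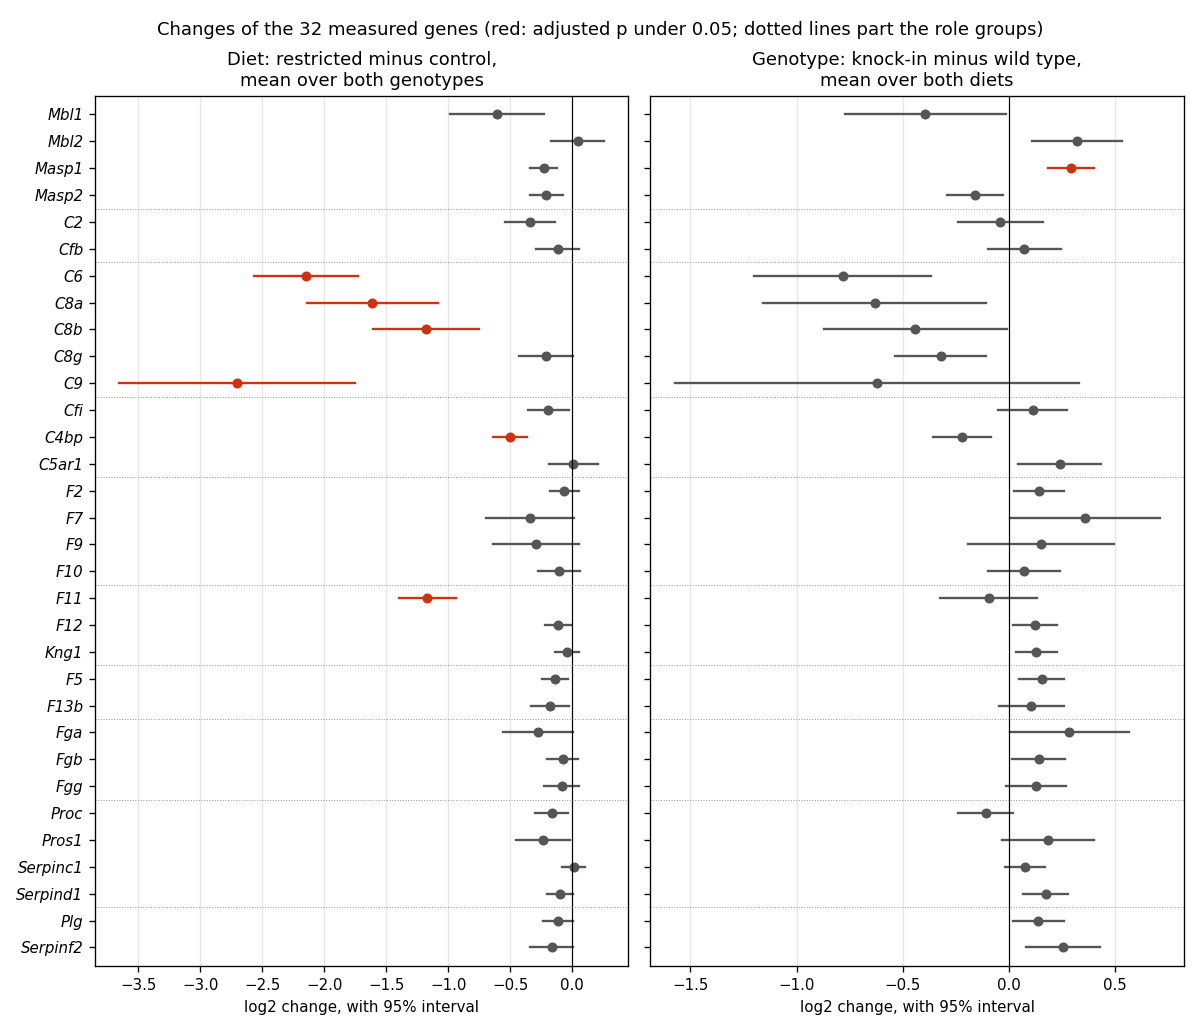
Average diet effect and average genotype effect (horizontal axes, log2, with 95% intervals from limma) of the 32 members grouped by role, in red where the adjusted p was under 0.05. C6, C8a, C8b, C9, F11 and C4bp stand to the left of 0 for diet, and Masp1 is the member called for genotype.

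The knock-in effect was asked on each diet and on average. On the control diet 0 of 32 members passed by limma, where 0.0802% of genes did, and 9 had an unadjusted p under 0.05, where 11.2% of genes did. C6 had the largest difference there (2.44-fold lower, -1.29 ± 0.27, limma adjusted p = 0.113), and F11 followed at -0.53 ± 0.15 (limma adjusted p = 0.216). Every KI_CD array lay below every WT_CD array for both genes. Serpinf2 gave 0.34 ± 0.11, with 6012, 6982 and 6573 units in WT_CD and 8108, 9108 and 7508 in KI_CD, and Serpind1 gave 0.19 ± 0.07. Without overlap, 12 members lay higher in KI_CD, where 8.57% of genes did, and 6 lower, where 10.4% did.

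Masp1, the lectin pathway protease that activates Masp2, was the only member called for genotype. It measured 2846, 3036 and 3027 units in WT_CD, 2289, 2215 and 2407 in WT_MR, 3219, 3436 and 3281 in KI_CD and 3162, 3287 and 2866 in KI_MR. WT_MR stood lowest, and the KI arrays exceeded the WT arrays on each diet. Averaged over diets it was 1.23-fold higher in KI (0.29 ± 0.05, limma adjusted p = 0.0162), where 1.98% of genes were called higher. On the restricted diet it was 1.35-fold higher (0.43 ± 0.07, limma adjusted p = 0.0314), where 0.261% were. At an unadjusted p under 0.05, 7 members were higher and 4 lower on that diet, where 6.55% and 7.59% of genes were. The average call held with each array left out. The call on the restricted diet was lost without WT_CD replicate 2, WT_MR replicate 1 or 2, or any KI_MR array, with adjusted p up to 0.122.

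The diet difference of Masp1 was -0.37 ± 0.07 in WT and missed the threshold there (limma adjusted p = 0.0582), as did its average of -0.23 ± 0.05 (limma adjusted p = 0.0508). Without KI_CD replicate 1 the average was -0.24 and passed (limma adjusted p = 0.0469). It also passed without WT_MR replicate 3 or KI_MR replicate 2, and when the probe sets of a gene were averaged.

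On average over diets, 13 members were higher and 7 lower in KI at an unadjusted p under 0.05, where 10.2% and 11.8% of genes were. All 5 terminal genes were below 0, where 12197 of 19938 genes were. C6 was at -0.78 ± 0.19 (limma adjusted p = 0.0553), C8a at -0.63 ± 0.24 and C9 at -0.62 ± 0.43. C8b was at -0.44 ± 0.20 and C8g at -0.32 ± 0.10, and none of the 5 passed in the main fit. Without WT_MR replicate 3 these averages were -0.63, -0.44, -0.17, -0.30 and -0.33. On the restricted diet alone, C6 and C9 were then at 0.02 and 0.18, while C8a, C8b and C8g stayed below 0 at -0.51, -0.21 and -0.43. C4bp was at -0.22 ± 0.06. Above 0 were 21 of 32 members, where 7723 of 19938 genes were. Most of the 21 were clotting factors and their inhibitors. Among them were Serpind1 at 0.17 ± 0.05 (limma adjusted p = 0.0789), F5 at 0.15 ± 0.05, Kng1 at 0.13 ± 0.04 and Serpinf2 at 0.25 ± 0.08. The lectin gene Mbl2 was at 0.32 ± 0.10, and neither it nor those named before it passed the threshold. Masp1, F12, Kng1 and F5 lay higher in KI without overlap on both diets, where 2.53% of genes did, and C8g and C4bp lower, where 1.47% did. Beside these values, 7 of 7 hepatocyte markers were above 0 for average genotype (median 0.06, 2 at an unadjusted p under 0.05) and 8 of 8 Kupffer cell markers below 0 (median -0.28, 3 at such a p), with 0 called by limma in either list. On the restricted diet the hepatocyte markers were above 0 in 7 of 7 too, with a median of 0.15. Their part in the genotype differences was not tested. C6 passed too after quantile normalization, with the dimmest genes left out, and without WT_MR replicate 2 or 3.

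Replicates did not vary independently from gene to gene. WT_MR replicate 3 was the highest of its group for 24 of 32 members and WT_MR replicate 2 the lowest for 27. In the same way WT_CD replicate 3 was highest for 25, KI_CD replicate 2 for 22 and KI_MR replicate 2 for 22. Acute phase genes, which the liver induces in inflammation, were also above their group means there, by a median of 0.37 (log2) on WT_MR replicate 3, 0.47 on WT_CD replicate 3, 0.25 on KI_CD replicate 2 and 0.08 on KI_MR replicate 2. Male-biased liver genes were above their group means on the same arrays too, by a median of 0.31, 0.25, 0.34 and 0.13 in that order. Replicate 3 was higher still in KI_MR for acute phase genes (0.09) and in KI_CD for male-biased genes (0.40). The mean deviation of C6, C8a, C8b and C9 on WT_MR replicate 3 was 0.94. The part of this shared variation in the diet results was not tested. The 6 diet calls held with each of these arrays left out singly, and no fit left them out together.

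**Figure D4:**
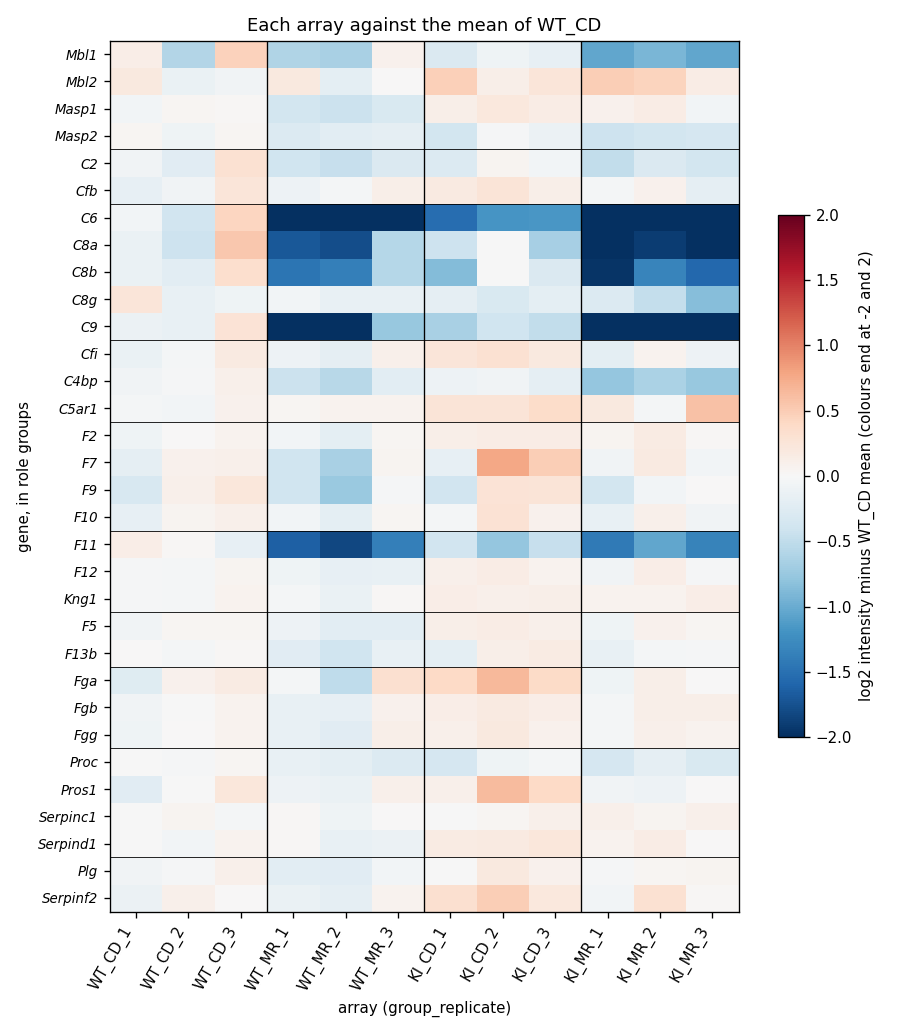
Log2 intensity of each member (rows, by role) on each array (columns) minus its WT_CD mean, as a colour that ends at -2 and 2. Within each genotype, the terminal pathway genes other than C8g, with F11, are lower on the MR arrays than on the CD arrays. WT_MR replicate 3 is higher than the other WT_MR arrays for C9, C8a and C8b.

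Several marker lists were read beside these results. Male-biased liver genes, which depend on the male pattern of growth hormone, lay below 0 for diet in all 9 measured, with 4 called lower by limma and a median of -1.74. Of all genes 55.6% were below 0 for diet and 0.602% were called lower. The male-biased genes lay below 0 for genotype in all 9 too, with 5 called lower and a median of -1.71. Of 19938 genes 12197 were below 0 for genotype and 167 were called lower. The summed intensity of the male-biased genes was 18850 to 27651 units in WT_CD, 3428 to 5730 in WT_MR, 1480 to 5816 in KI_CD and 1494 to 1793 in KI_MR. Within KI all 9 were below 0 for diet as well, with a median of -1.01 and 4 at an unadjusted p under 0.05, and limma called 0 of them. Of all genes 56.4% were below 0 there and 7.78% had such a p.

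Acute phase genes gave 12 of 13 below 0 for diet, with 0 called by limma, a median of -0.28 and 5 at an unadjusted p under 0.05, of which 4 were below 0 and 1, Apcs, above (0.92 ± 0.25). Over all genes 55.6% were below 0 for diet, and 2167 of 19938 had an unadjusted p under 0.05. Of 12 regulators of secreted hepatocyte proteins, 9 were below 0 for diet (median -0.12) and 0 were called. The 3 with an unadjusted p under 0.05 were all below 0. Hnf4a gave 0.05 ± 0.10 and Onecut1 -1.12 ± 0.47. Kupffer cell markers gave a median of -0.09, with 0 of 8 called and 0 at an unadjusted p under 0.05. The part of these genes in the members' differences was not tested.

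The rest of the 2 pathways was read from a list of 57 other genes, of which 49 were measured. For the average diet effect 2 fell and 0 rose, and 38 were below 0. Of all genes 0.602% fell, 0.607% rose and 55.6% were below 0. Clusterin (Clu), which binds the nascent membrane attack complex and keeps it soluble, fell (-0.43 ± 0.06, limma adjusted p = 0.00913). It measured 5117, 4929 and 5859 units in WT_CD, 3704, 3938 and 4143 in WT_MR, 5652, 5968 and 5151 in KI_CD and 3845, 4213 and 4392 in KI_MR, so all restricted arrays lay below all control arrays. Lman1, the cargo receptor that carries factors V and VIII out of the endoplasmic reticulum, fell as well (-0.28 ± 0.06, limma adjusted p = 0.0435), but kept its call in only 2 of 12 fits with an array left out. C7, the remaining partner of C6 in the pore, gave -0.13 ± 0.08, but its probe set was dim, at 55 to 78 units where the array medians were 82 to 90, so a change in C7 could go unseen. Hc, the gene of C5, gave -0.37 ± 0.11, and neither passed.

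In the other comparisons 0 of these 49 genes passed by limma. At an unadjusted p under 0.05 there were 7 for diet in KI, where 7.78% of all genes had such a p, and 12 for diet in WT, where 8.19% did. For the knock-in there were 9 on the control diet (11.2% of all genes), 6 on the restricted diet (14.1%) and 11 on average (22.0%), and for the interaction 2 (4.13%). The counts on the restricted diet, for the interaction and for average genotype were near those shares. The smallest p-values for diet were those of C1s1, a protease of the C1 complex (-0.61 ± 0.12 in WT, limma adjusted p = 0.0692), Clu in both genotypes (-0.43 in each), and Habp2, a plasma protease that binds hyaluronan (-0.36 ± 0.10 in KI). C1s1 and its partner C1ra gave interactions of 0.53 ± 0.17 and 0.43 ± 0.16. For genotype on average they were those of the second kininogen gene Kng2 (0.19 ± 0.05, limma adjusted p = 0.0571) and the C1r-like protease gene C1rl (0.24 ± 0.07). These 2 genes also came first on the control diet, at 0.22 and 0.29. On the restricted diet the soluble lectin genes Colec11 (-0.39 ± 0.12) and Fcna (-0.35 ± 0.12) came first.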

How the data were processed

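Total liver RNA from 12 samples was measured on 1-colour arrays. The deposited values were linear intensities per probe set, whole numbers from 10 to 20042 on a scale common to the arrays. The background correction and scaling used by the authors, and the software, are not given in the sources used here. Of 35512 probe sets, 21789 carried 1 gene symbol in the platform annotation, 1621 several and 12102 none. The brightest probe set of each gene gave 19938 genes, 999 of them with more than 1. The log2 of the intensities was taken with no further scaling or filter.

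A model of 4 group means was fitted to all genes and 12 arrays in limma 3.58.1 (R 4.3.3) with lmFit and eBayes (8 residual and 3.14 prior degrees of freedom). There were 7 two-sided contrasts, adjusted over all genes, with a threshold of 0.05. The number of arrays limits the precision. With 3 arrays against 3, no exact permutation p can go below 0.1. On simulated data for KI_MR against KI_CD, 56% of changes of 0.5, 94% of 1 and 100% of 2 (log2) were recovered. For each size 150 changes were planted, in genes drawn at random from 19938. They were pooled over runs that each mixed all sizes, up to 4. The simulated noise was independent from gene to gene, unlike that of the arrays here. Many strong changes were also planted together. For both reasons these shares need not hold for the members. In the data, C9 at -2.82, C8a at -1.88 and C8b at -1.23 did not pass in this comparison (limma adjusted p = 0.138, 0.067 and 0.157).

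The members and lists were chosen with earlier results of these data known. The rule for naming took members past the threshold, the 4 with the smallest p per contrast and the member of each role group with the highest mean. Of other pathway genes it took those past the threshold or the 2 with the smallest p. The text went beyond this rule and gives values for all 32 measured members. Those outside the rule, such as Mbl1, Mbl2, C2, Cfi, F7 and Fga, and the other pathway genes C7, Hc and Proz, were added after their values were seen. Alternatives were a replicate block, each array left out, the compared arrays alone, quantile normalization or median centring, dropping the dimmest 25% or 50% of genes, mean probe sets, and a trend and robust prior. The labels give no batch or date. Figures used Python 3.11.15 and matplotlib 3.10.9. Promoter sequences came from a RefSeq table (GRCm38.p6), which held 25 of the 32 members.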

Additional observations from a re-analysis of the deposited data

How the results depend on the processing

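The 6 members that fell with diet on average were called under 7 other settings and with each array left out. The count was 6 to 7 under the settings and 6 to 8 without an array, where Mbl1, Masp1 or Masp2 joined. No called change turned its direction under any alternative run, while the median interaction of the members, at -0.00, ran from -0.06 to 0.05 with an array left out. For KI_MR against KI_CD the 2 calls became 0 with median centring, where 9 members had an unadjusted p under 0.05 by limma, and 0 with the compared arrays alone, where 12 did and 0 genes of the whole table passed. With an array left out that count ran from 0 to 4. For WT_MR against WT_CD it ran from 2 to 4, with C9 and C4bp added without WT_MR replicate 3. For KI_MR against WT_MR the 1 call became 0 with the trend and robust prior (8 members at an unadjusted p under 0.05 by limma) and 0 with the compared arrays alone (7 such members), and ran from 0 to 1 with an array left out. For the average genotype effect the 1 call became 2 with quantile normalization and with the dimmest 25% or the dimmest 50% left out, where C6 joined Masp1. It ran from 1 to 4 with an array left out, with 4 without WT_MR replicate 3.

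Correlations between groups of same-numbered deviations ran from -0.06 to 0.24. Differently numbered arrays were not compared, so whether replicate numbers pair the samples was not settled. With the replicate number as a block, 3 members were called for average genotype (C6, Masp1 and Mbl2) and 6 for average diet, and the diet effect of C6 was -2.15 (limma adjusted p = 0.000831). Over all genes, 960 were called for average genotype by limma with that block, against 561 without it. Without KI_CD replicate 1, the array least like its group, C6 fell by 2.21 and C9 by 2.74 on the log2 scale, averaged over genotypes. Quantile normalization and median centring moved the median of all genes by at most 0.07 (log2). The main limits are 3 arrays a group, intensities without detection calls, and bulk tissue.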

Other observations

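Several of the genes lie side by side in the RefSeq gene order, and their diet effects, averaged over genotypes, are given here as values. C8b and C8a are adjacent on chromosome 4, and both fell (-1.18 and -1.61). C6 and C7 lie on chromosome 15 with 1 protein-coding gene between them, and their values were -2.15 for C6 and -0.13 for C7, whose probe set was dim (55 to 78 units). F11 is adjacent to Klkb1 on chromosome 8, whose level was not used. F7, F10 and Proz, a cofactor that aids the inhibition of factor X, are adjacent on chromosome 8 and gave -0.34, -0.11 and -0.30. C2 and Cfb are adjacent on chromosome 17 and gave -0.34 and -0.12. The kininogen genes Kng2 and Kng1 are adjacent on chromosome 16 and gave -0.02 and -0.04, and 0.19 and 0.13 for genotype. Apart from C8a, C8b, C6 and F11, none of these values passed by limma over all genes. Neighbours were not tested against other gene pairs.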
